A study of Mus musculus with 6 samples.

Results

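The carnitine shuttle carries fatty acids into mitochondria. The 8 genes described here were chosen by symbol (Cpt1a, Cpt1b, Cpt1c, Cpt2, Slc25a20, Crat, Crot and Slc22a5) in the annotation of the array, out of 18193 genes read on it. They are listed with 16 probe sets, a probe set being a group of short probes for 1 transcript. Of these, 15 list a single gene and read 7 of the 8 genes. The only probe set of Cpt1b also lists Gm44502 and Chkb, so no level of Cpt1b itself could be given. Each of the other 7 genes is read below by its probe set with the highest mean over all arrays, and its other probe sets are given beside it.

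The samples are isolated pancreatic islets, the endocrine part of the pancreas, from male CD1 mice aged 8 weeks. In the CMPF group (3 arrays) the islets were kept for 24 hours with 200 uM CMPF, a furan-containing fatty acid metabolite that circulates in plasma. In the vehicle group (3 arrays) they were kept for the same time with 0.1% ethanol. All islets had first rested overnight in culture medium. The labels number the samples 1 to 3 in each group and do not say whether the numbers stand for separate animals, so a p-value here reflects only how far these samples spread, and that spread may be technical. The title of the series is about metabolic genes, and the comparison made here asks whether transcripts of the shuttle differed with CMPF. Values are log2 signals, so a difference of 1 is a 2-fold change.

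Long-chain fatty acids, once activated to acyl-CoA, cannot cross the inner mitochondrial membrane. A carnitine palmitoyltransferase 1 (CPT1) on the outer membrane moves the acyl group to carnitine, the carrier SLC25A20 exchanges the acylcarnitine for free carnitine across the inner membrane, and CPT2 rebuilds acyl-CoA in the matrix, where beta-oxidation begins. CPT1 is inhibited by malonyl-CoA, which forms from glucose carbon, and in beta cells this switch ties the choice of fuel to the glucose supply. CRAT and CROT make carnitine esters of shorter acyl groups in mitochondria and peroxisomes, and SLC22A5 takes up carnitine from outside the cell.

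On these arrays no carnitine shuttle gene differed between CMPF and vehicle islets beyond the spread between samples. Differences of the 7 genes ran from -0.06 for Crot to 0.20 for Crat, with 6 of 7 positive (50.7% of all genes were) and a median of 0.06, against a median of 0.0018 over all genes tested. Limma with Benjamini-Hochberg adjustment over all genes called 0 of the 7 (adjusted p = 0.99995 for each) and 0 of all 18193 genes, 0% of those tested. At an unadjusted p under 0.05 it named 0 of the 7 genes and 205 of all genes (1.13%). With the replicate number as a block the adjusted p of the 7 genes was 0.979 or more, 0 were called, and 0 of the 7 had an unadjusted p under 0.05, against 3.80% of all genes. In 4 of the 7 genes the replicate number accounted for over 80% of the variation across the 6 arrays. Its median share over all genes was 59.7%. The lowest share of these 4, that of Cpt2 at 84.9%, was exceeded in 19.6% of all genes. The replicate number is described after the single genes.

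The tissue label was checked against marker genes. Of 8 endocrine islet markers 7 were read by a single-gene probe set, and their mean log2 signal was 13.5 to 13.6 on CMPF arrays and 13.5 to 13.7 on vehicle arrays. Signal of digestive enzyme genes of the exocrine acinar cells was also present. Summed over 14 of 17 listed markers it was 16.1 to 17.0 (log2) with CMPF and 15.4 to 16.9 with vehicle. Summed in the same way, the 7 endocrine markers read 16.8 to 16.9 in both groups. The acinar sum exceeded the endocrine sum on array 2 of each group and lay below it on the other arrays. The acinar difference was positive for 14 of 14 genes (median 0.43), against 50.7% of all genes. Of the 14, 11 were higher in all 3 pairs (11.8% of all genes). With the block 8 had an unadjusted limma p under 0.05 (3.80% of all genes). These genes were read on the same arrays, so the counts are not separate tests. Endothelial markers differed by a median of 0.28, positive for 6 of 6 genes and with 4 under 0.05 with the block (3.80% of all genes). Their summed signal was 8.26 to 9.07 with CMPF and 8.43 to 8.83 with vehicle. The 4, named after their values were seen, were the dimmest of the list: Pecam1, Tek, Tie1 and Vwf. Tie1 (means 3.46 with CMPF and 3.16 with vehicle) and Vwf (4.12 and 3.81) lay below the lower quartile of gene means, 4.53. The brighter Cdh5 and Kdr each differed by 0.07 (SE 0.298 and 0.184) and were lower with CMPF in pair 1. Stellate cell and fibroblast markers differed by a median of -0.23, negative for 7 of 7. They summed to 12.3 to 13.6 with CMPF and 12.8 to 13.4 with vehicle. The pairs differed in sign, with medians of -0.41, -0.54 and 0.35, and 0 of the 7 were lower in all 3 pairs. None of these marker genes was called after adjustment. In such whole-islet RNA, fewer cells of a type and less RNA per cell cannot be told apart.

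**Figure D1:**
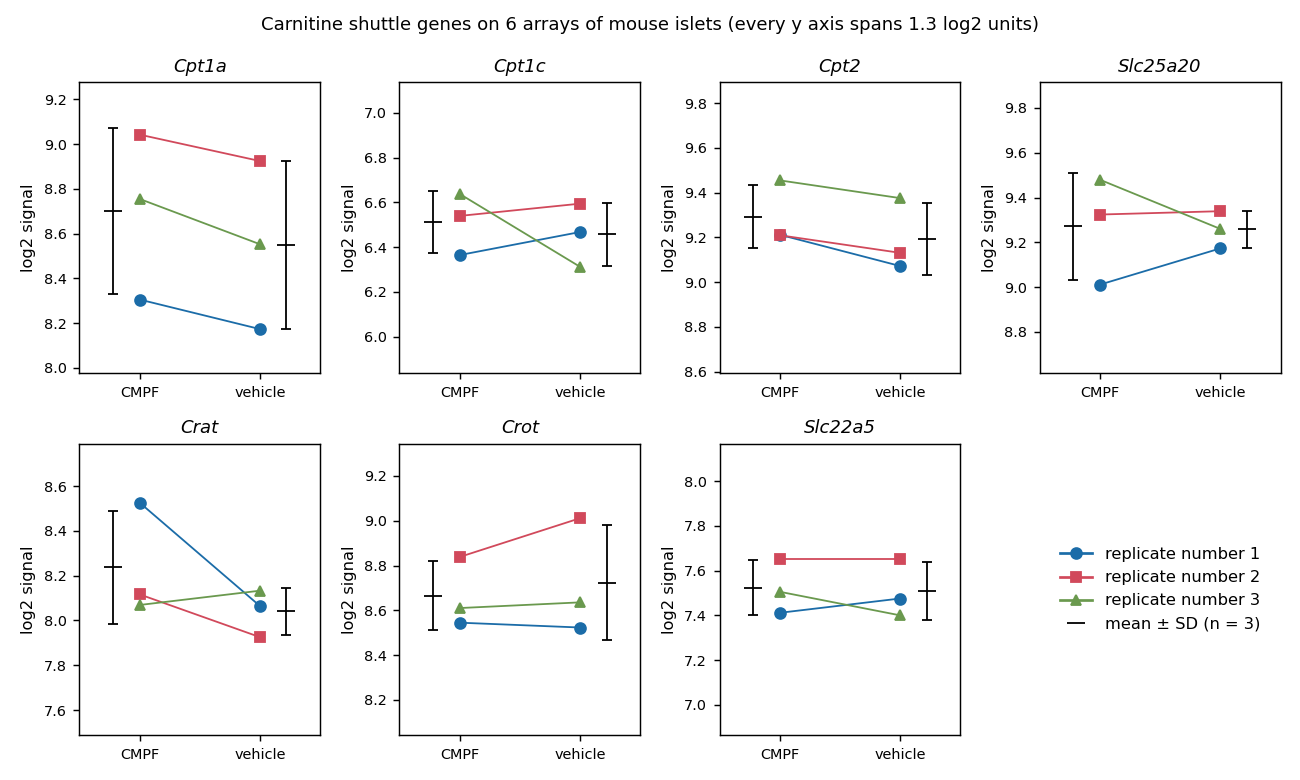
Log2 signal of the 7 carnitine shuttle genes on the 3 CMPF arrays (left of each panel) and the 3 vehicle arrays (right). Lines join arrays of the same replicate number, and black bars are the group mean ± SD (n = 3). In each panel the groups overlap, and for Cpt1a the 3 lines lie far apart while the slope from group to group is small.

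Cpt1a encodes the CPT1 form of liver and islets. Its log2 signal was 8.31, 9.04 and 8.75 on CMPF arrays 1 to 3, against 8.17, 8.92 and 8.55 on vehicle arrays 1 to 3. Array 1 was the lowest and array 2 the highest in both groups, and the groups overlapped. The means were 8.70 ± 0.37 with CMPF and 8.55 ± 0.38 with vehicle (SD, n = 3 each), a difference of 0.15 (SE 0.238, 95% interval -0.41 to 0.71). As a fold this is 1.11, with an interval of 0.754 to 1.64. CMPF was higher in all 3 pairs of equal number, by 0.13, 0.12 and 0.20, and in the fit with the replicate block the standard error was 0.0754 (unadjusted p = 0.0911, adjusted p = 0.979, limma). Leaving out 1 pair gave 0.13 to 0.17. Among the fits that left out 1 array and took no account of the numbers, the difference was -0.04 without vehicle 1 and -0.02 without CMPF 2, and 0.35 without CMPF 1. The mean acinar marker signal was also higher with CMPF in all 3 pairs, and with it as a covariate the difference was 0.05 (SE 0.233). Acinar signal and CMPF cannot be told apart on these arrays.

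The other probe sets of Cpt1a did not show the same pair differences. The second set read 8.00, 8.62 and 8.82 with CMPF and 8.05, 8.91 and 8.45 with vehicle, a difference of 0.01 (SE 0.263). The third read 5.82, 6.64 and 6.72 with CMPF and 5.93, 6.84 and 6.41 with vehicle, a difference of -0.00071 (SE 0.291). Both were lower with CMPF in pairs 1 and 2 and higher in pair 3. Over the 6 arrays they correlated at 0.991 with each other and at 0.881 and 0.914 with the brightest set, and array 1 was the lowest of its group in all 3 sets. Both carry the suffix _x_at, which on this kind of array marks probes that may also bind other transcripts.

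Cpt1c encodes a CPT1 relative of the endoplasmic reticulum, best known in neurons. It read 6.36, 6.54 and 6.64 with CMPF, against 6.47, 6.59 and 6.31 with vehicle, and the pairs differed in sign (-0.10, -0.05 and 0.33). The difference was 0.06 (SE 0.114, 95% interval -0.21 to 0.32), and it was -0.08 without both arrays of number 3. The probe set that lists Cpt1b, the muscle form of CPT1, together with Gm44502 and Chkb read 3.54, 3.39 and 3.42 with CMPF and 3.04, 3.34 and 3.26 with vehicle. These groups did not overlap, which held for 5.48% of all probe sets. The difference of 0.23 (SE 0.109) had an unadjusted p of 0.0641 and an adjusted p of 0.99996 over all probe sets (limma), and its mean signal lay at percentile 18.1 of all probe sets. Which of the 3 genes gave the signal was not tested.

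Cpt2 encodes the enzyme of the inner membrane that hands the acyl group back to CoA. It read 9.21, 9.21 and 9.45 with CMPF, against 9.07, 9.13 and 9.38 with vehicle. CMPF was higher in all 3 pairs, by 0.14, 0.08 and 0.08, while the groups overlapped because both arrays of number 3 lay above the others. The means were 9.29 ± 0.14 with CMPF and 9.19 ± 0.16 with vehicle (SD, n = 3 each), a difference of 0.10 (SE 0.119, 95% interval -0.18 to 0.38). With the block the standard error was 0.0748 (unadjusted p = 0.232, adjusted p = 0.979, limma). Leaving out 1 array or 1 pair gave 0.02 to 0.19. Its second probe set, with signals between 3.44 and 3.72, differed by 0.02 (SE 0.112) and in both directions among the pairs. Cpt1a and Cpt2 were the 2 of 7 genes higher in all 3 pairs, and 0 of 7 were lower in all 3, where 11.8% of all genes were higher and 11.1% lower. With 7 genes on the same 6 arrays this share was not tested.

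Slc25a20 encodes the carnitine-acylcarnitine carrier between the CPT1 and CPT2 steps. Its brightest set read 9.01, 9.32 and 9.48 with CMPF, against 9.17, 9.34 and 9.26 with vehicle, a difference of 0.01 (SE 0.132, 95% interval -0.30 to 0.32). The pair differences were -0.16, -0.01 and 0.22, so array 1 lay lower and array 3 higher with CMPF. The second set read 7.99, 8.19 and 8.24 with CMPF and 7.99, 8.08 and 7.94 with vehicle. CMPF was higher in all 3 pairs there, by 0.0072, 0.11 and 0.29, with a difference of 0.14 (SE 0.102, adjusted p = 0.99996 in limma over all probe sets).

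Crat encodes carnitine acetyltransferase, which buffers acetyl-CoA in the matrix. Its brightest set, an _x_at set, read 8.53, 8.12 and 8.07 with CMPF, against 8.06, 7.93 and 8.13 with vehicle. CMPF 1 stood 0.39 above the highest of the other arrays, and the pair differences were 0.46, 0.19 and -0.06. The difference of 0.20 (SE 0.139, 95% interval -0.13 to 0.52) was the largest of the 7 genes, and was 0.05 without CMPF 1. The other Crat sets differed the opposite way. One read 6.10, 6.47 and 6.39 with CMPF and 6.28, 6.43 and 6.42 with vehicle, a difference of -0.06 (SE 0.119). The other read 6.14, 5.89 and 6.01 with CMPF and 6.19, 6.01 and 6.21 with vehicle, lower with CMPF in all 3 pairs by a mean of -0.12 (SE 0.106). CMPF 1 was not the highest array in either of these sets. The brightest set correlated at -0.818 and 0.296 with them over the 6 arrays.

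Crot encodes the peroxisomal octanoyltransferase, which prepares chain-shortened acyl groups for export to mitochondria. It read 8.54, 8.84 and 8.61 with CMPF, against 8.52, 9.01 and 8.64 with vehicle, a difference of -0.06 (SE 0.149, 95% interval -0.41 to 0.29). Array 2 was the highest in both groups, and the pair differences were 0.02, -0.17 and -0.03. Its second set read 6.34, 5.78 and 5.92 with CMPF and 6.10, 5.72 and 5.81 with vehicle. In that set array 2 was the lowest of each group, CMPF was higher in all 3 pairs, and the difference was 0.14 (SE 0.168). The 2 Crot sets correlated at -0.756 over the 6 arrays.

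Slc22a5 encodes OCTN2, the sodium-dependent carnitine transporter of the cell surface. It read 7.41, 7.65 and 7.51 with CMPF, against 7.48, 7.65 and 7.40 with vehicle. The difference was 0.01 (SE 0.108, 95% interval -0.24 to 0.27), and the pairs gave -0.06, 0 and 0.11. The second set, at most 4.18 on any array, differed by -0.03 (SE 0.091). Array 2 was again the highest of each group in the brighter set.

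**Figure D2:**
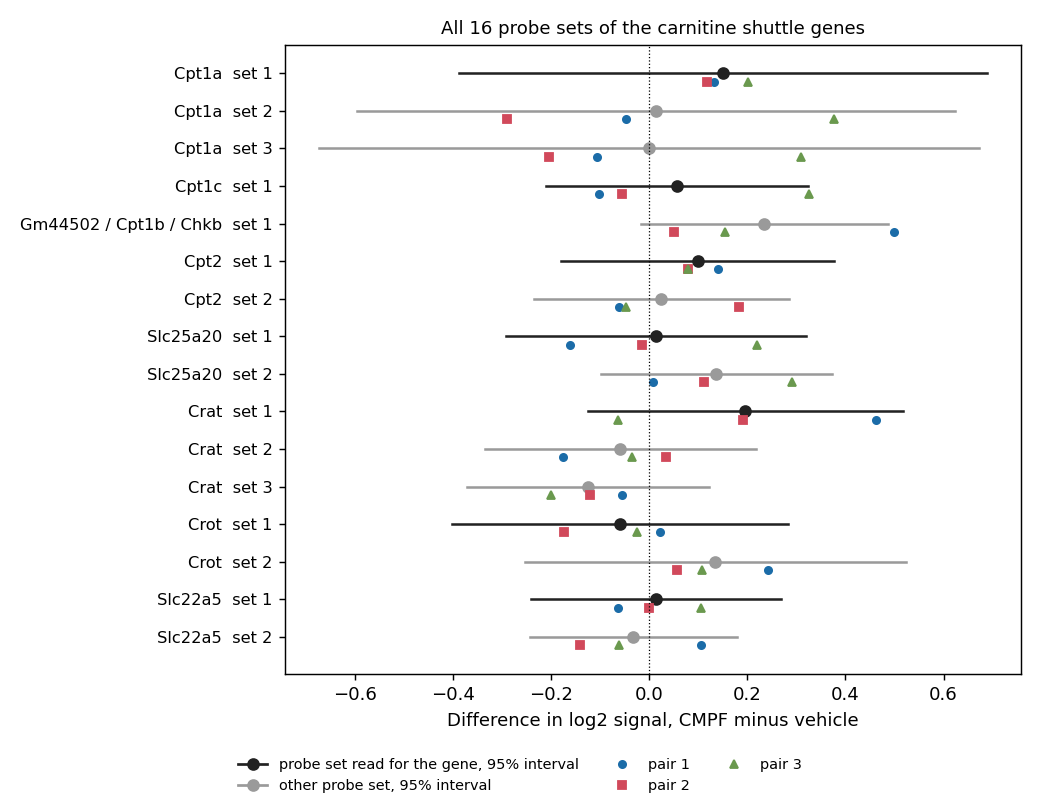
Difference in log2 signal, CMPF minus vehicle, for the 16 probe sets, brightest set of each gene first. Large points and lines are the limma estimate and its 95% interval, black for the set read for the gene and grey for the others, and small symbols are the 3 pairs of equal replicate number. Every interval spans 0, and the sets of Crat and of Crot lie on both sides of it.

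Across the 15 single-gene probe sets, 10 differences were positive and 5 negative. Limma called 0 of them over all probe sets, without and with the block, and 0 had an unadjusted p under 0.05 in either fit. CMPF was higher in all 3 pairs for 4 of the 15 sets (12.0% of all probe sets) and lower in all 3 for 1 (11.0% of all probe sets). The 4 were the brightest sets of Cpt1a and Cpt2 and the dimmer sets of Slc25a20 and Crot, and the 1 was a set of Crat. The groups overlapped in all 15 sets, where 5.48% of all probe sets had none. Among the 6 genes with more than 1 set, 4 had differences of both signs: Cpt1a, Crat, Crot and Slc22a5.

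In 5 of the 7 genes most of the variation followed the replicate number. The total sum of squares of a gene over the 6 arrays was divided into shares for the replicate number, for CMPF against vehicle and for the rest, which have 2, 1 and 2 degrees of freedom. The replicate number took 93.9% for Cpt1a, 91.5% for Crot, 88.1% for Slc22a5, 84.9% for Cpt2 and 70.9% for Slc25a20, but 38.5% for Crat and 27.8% for Cpt1c. Over all genes its median was 59.7%, and it exceeded 50% in 59.9% of genes. A larger share than that of Cpt1a was found in 6.47% of all genes. CMPF against vehicle took at most 28.0% of the squares, for Crat, and 0.240% for Slc25a20, where the median of all genes was 7.58%.

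**Figure D3:**
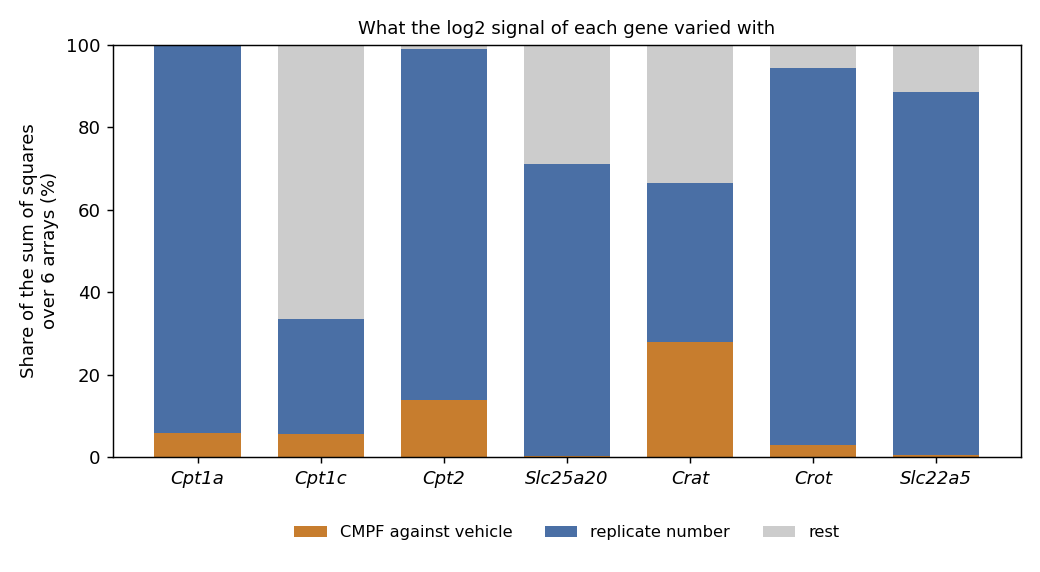
Share of the sum of squares of the log2 signal over 6 arrays, in percent, taken by CMPF against vehicle, by the replicate number and by the rest, for each carnitine shuttle gene. The replicate number takes the largest share for Cpt1a, Cpt2, Slc25a20, Crot, Slc22a5 and Crat, and the rest takes the largest for Cpt1c.

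A limma F test of the replicate number, chosen after seeing the data, called Cpt1a (F = 32.5, adjusted p = 0.0318) and 481 of all genes (2.64%). It called none of the other 6 shuttle genes read, with adjusted p from 0.145 for Crot to 0.715 for Cpt1c. Mean Cpt1a signal was 8.24 for number 1, 8.98 for number 2 and 8.65 for number 3, so the span between numbers, 0.74, was several times the difference between CMPF and vehicle. The call was lost without CMPF 1 (adjusted p = 0.142), CMPF 2 (0.179), vehicle 1 (0.0917) or vehicle 2 (0.185), without pair 1 (0.189) or pair 2 (0.255), and with the mean of the Cpt1a sets (0.0502). The other Cpt1a sets missed the threshold over all probe sets (adjusted p = 0.117 and 0.0589). Other signals moved with the numbers as well. The summed acinar signal was 16.4, 17.0 and 16.1 on CMPF arrays 1 to 3 and 16.1, 16.9 and 15.4 on vehicle arrays 1 to 3, and that of duct markers 12.1, 12.5 and 12.3 with CMPF and 12.1, 12.5 and 12.2 with vehicle. Of the read markers, 13 of 14 acinar and 4 of 5 duct genes were highest on number 2 in both groups. Once the acinar mean entered the fit, the limma F test of Cpt1a gave F = 20.5 and an adjusted p of 0.0836. Calls over all genes fell from 481 to 157 in that fit. Acinar signal itself moved with the numbers, so the fit cannot tell them apart. The part of the duct markers was not tested.

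The shuttle genes did not share 1 pattern over the 6 arrays. Cpt1a correlated at 0.829 with Crot and 0.808 with Slc22a5, and Crot at 0.865 with Slc22a5, all 3 being highest on both arrays of number 2. Cpt2, highest on both arrays of number 3, correlated at 0.230 with Cpt1a and -0.230 with Crot. Crat correlated below 0 with Cpt1a, Cpt1c, Crot, Slc25a20 and Slc22a5, from -0.492 to -0.760. These are descriptions over 6 arrays that share replicate numbers. Among genes above the median level, those most like Cpt1a were Plin2 (r = 0.995), a lipid droplet coat protein, Galnt2 (0.992) and Zfp994 (0.991), and 320 of 9095 genes correlated with it above 0.9. For Crat they were Pgrmc1 (0.988), Jph2 (0.982) and Rcan3 (0.980), with 70 genes above 0.9. The other 5 genes spanned less than 0.5 log2 units over the arrays and were not compared in this way.

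The promoters of Cpt1a, Crot and Slc22a5 are shown because the signals of their brightest sets moved together over the arrays. The second sets of Crot and Slc22a5 did not, and correlated at -0.756 and -0.521 with the brightest set of their gene. Shared regulation was not tested. Each is the 250 bases before the annotated start in RefSeq (GRCm38.p6), 5′ to 3′ on the strand of the gene. Capitals mark 2 motifs on either strand, the GC box (GGGCGG or CCGCCC) and the CCAAT box (CCAAT or ATTGG).
Cpt1a, chr19:3323051-3323300, + strand: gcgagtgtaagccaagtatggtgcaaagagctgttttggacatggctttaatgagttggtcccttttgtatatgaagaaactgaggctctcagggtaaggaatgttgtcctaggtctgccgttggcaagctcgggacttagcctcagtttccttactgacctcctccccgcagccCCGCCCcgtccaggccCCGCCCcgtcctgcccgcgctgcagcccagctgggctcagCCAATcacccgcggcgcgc
Crot, chr5:8997147-8997396, - strand: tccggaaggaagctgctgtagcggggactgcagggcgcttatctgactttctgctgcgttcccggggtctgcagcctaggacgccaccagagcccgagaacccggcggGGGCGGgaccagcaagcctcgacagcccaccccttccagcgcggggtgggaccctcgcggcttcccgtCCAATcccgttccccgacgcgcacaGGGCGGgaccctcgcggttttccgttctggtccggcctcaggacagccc
Slc22a5, chr11:53891704-53891953, - strand: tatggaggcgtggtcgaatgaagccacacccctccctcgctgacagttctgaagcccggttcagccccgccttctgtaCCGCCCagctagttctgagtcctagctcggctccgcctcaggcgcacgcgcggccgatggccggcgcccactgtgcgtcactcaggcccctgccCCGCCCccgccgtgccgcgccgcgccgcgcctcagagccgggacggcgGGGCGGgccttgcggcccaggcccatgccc

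RefSeq windows were found for 6 of the 8 genes, not for Cpt1b and Crat. A GC box was present in 6 of the 6 windows, against 32.7% of all 32851 RefSeq windows of the same length. A CCAAT box was present in 3 of 6 (Cpt1a, Cpt1c and Crot), against 33.8%. The windows compared with were not limited to genes read on the array and were not matched for G and C content. The window of Slc22a5 held 3 GC boxes and no CCAAT box. It was 73.6% G and C, that of Crot 69.6% and that of Cpt1a 59.6%, where the median window had 52.4%. The hexamer AGGTCA, which nuclear receptors such as the PPARs can bind, was found on either strand in the windows of Cpt1a and Cpt1c, against 14.0% of all windows. The PPAR-RXR direct repeat of this hexamer, with 1 base between the copies, was found in 0 of 6 (0.0335% of all windows), and the NRF2 element core TGACNNNGC in 0 of 6 (10.2%). A match describes these letters and is no sign of binding, and the lack of an exact match is no sign against it. The exact direct repeat is so rare that 0 of 6 was to be foreseen.

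Genes around the shuttle were examined in the same fit. Of 58 genes in 7 lists, 55 were read, and limma called 0 of them in either direction. Their median difference was 0.0079, with 31 positive and 24 negative. Without the block 0 had an unadjusted limma p under 0.05. With the block only Acacb did (unadjusted p = 0.0262, adjusted p = 0.979, limma). CMPF was higher in all 3 pairs for 9 of the 55 genes (11.8% of all genes) and lower in all 3 for 1 (11.1%), Echs1, an enoyl-CoA hydratase named after its values were seen, at -0.05 (SE 0.086). The groups did not overlap for 2 of the 55, both higher with CMPF, against 4.52% of all genes in either direction.

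Enzymes of matrix beta-oxidation, which receive what the shuttle delivers, had the highest median of the 7 lists, 0.07, with 0 genes called. Of their 15 differences 13 were positive (50.7% of all genes). In all 3 pairs 5 genes were higher (11.8% of all genes) and 1 lower (11.1%). The acinar markers were higher with CMPF too, and with their mean as a covariate 9 of the 15 differences were positive, with a median of 0.02. Of all genes 49.8% were positive in that fit. The acinar mean was higher with CMPF in all 3 pairs, so acinar signal and CMPF cannot be told apart here. The part of the endothelial and stellate markers was not tested. Acadvl, which starts the oxidation of very long chains, read 9.31, 9.38 and 9.28 with CMPF, against 9.20, 9.19 and 9.19 with vehicle. Its groups did not overlap, and the difference was 0.13 (SE 0.079, 95% interval -0.05 to 0.32, unadjusted p = 0.140). Etfb, of the electron transfer flavoprotein, read 9.89, 10.1 and 9.88 with CMPF, against 9.84, 9.87 and 9.79 with vehicle, a difference of 0.11 (SE 0.091), again without overlap. Acadm, for medium chains, differed by 0.15 (SE 0.137) and Acads, for short chains, by 0.14 (SE 0.130).

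In the malonyl-CoA list, which holds the enzymes that set the inhibitor of CPT1, the median was 0.0076 and 0 of 7 genes were called. Acacb, the acetyl-CoA carboxylase at the mitochondrial surface, read 5.32, 5.92 and 5.25 with CMPF, against 5.06, 5.52 and 5.14 with vehicle, higher in all 3 pairs. The difference was 0.26 (SE 0.203 without the block and 0.088 with it). Prkaa1 and Prkaa2, catalytic subunits of the kinase AMPK, differed by -0.15 (SE 0.122) and 0.13 (SE 0.135), and Prkag1, another AMPK subunit, by 0.02 (SE 0.084).

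Among genes that make and bind acyl-CoA outside the matrix, the median of 8 read genes was 0.0019, and 0 were called. The acyl-CoA synthetase genes Acsl3, Acsl4 and Acsl6 differed by 0.13 (SE 0.108), -0.22 (SE 0.193) and -0.07 (SE 0.095). Dbi, the acyl-CoA binding protein, differed by 0.17 (SE 0.287), higher in all 3 pairs, with array 2 the highest of both groups (10.4 with CMPF and 10.3 with vehicle).

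Carnitine synthesis had a median of 0.04 over 5 genes, with 0 called. Bbox1, the last enzyme of the pathway, read 5.17, 5.21 and 5.12 with CMPF, against 4.78, 4.81 and 5.16 with vehicle. The groups overlapped through vehicle 3, and the difference of 0.25 (SE 0.120) had the smallest unadjusted limma p of these 55 genes without the block (0.0729), and with the block that of Acacb was smaller. Tmlhe, the first enzyme, differed by 0.06 and Aldh9a1 by 0.04, and Shmt2, a serine hydroxymethyltransferase, by -0.06. Among other carriers of carnitine and related compounds the median was -0.03 over 6 genes with 0 called. Slc22a4, a relative of Slc22a5, differed by -0.19 (SE 0.176), and Slc25a29, a mitochondrial carrier, by -0.05. The carnitine transporter genes Slc22a21 and Slc22a16 differed by -0.04 and 0.06. Slc22a4 (means 4.07 with CMPF and 4.25 with vehicle) and Slc22a21 (3.64 and 3.68) were dim, below the lower quartile of gene means, 4.53.

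Peroxisomal enzymes and acyl-CoA carriers, upstream of CROT, had a median of 0.04 over 7 genes with 0 called. Ehhadh, the bifunctional enzyme, differed by 0.14 (SE 0.159) and Acaa1a, a thiolase, by 0.07 (SE 0.088), both higher in all 3 pairs. Hsd17b4, a multifunctional enzyme, differed by -0.17 and Abcd2, a fatty acyl-CoA transporter, by 0.10 (SE 0.144). Abcd2 was dim (means 3.89 with CMPF and 3.80 with vehicle), below the lower quartile of gene means, 4.53. The receptors and coactivators that regulate fatty acid oxidation genes had a median of -0.04 over 7 genes with 0 called. Ppard and Pparg, nuclear receptors for fatty acids, differed by -0.04 (SE 0.129) and -0.05 (SE 0.112). The coactivator Ppargc1a differed by -0.04 (SE 0.089) and the orphan receptor Esrra by 0.08 (SE 0.094). Ppargc1a was dim as well (means 4.39 with CMPF and 4.42 with vehicle).

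**Figure D4:**
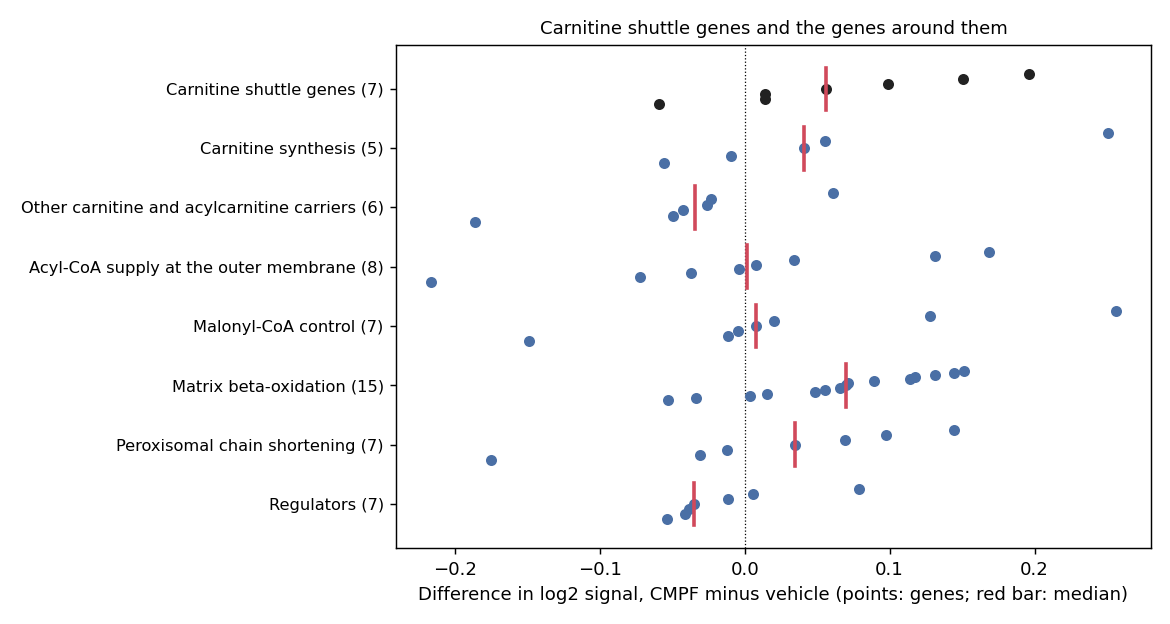
Difference in log2 signal, CMPF minus vehicle, for each gene read in the carnitine shuttle and in the 7 lists around it, with the number of genes in brackets and the list median as a red bar. All 62 differences lie between -0.22 and 0.26, and the medians lie between -0.04 and 0.07.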

How the data were processed

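Gene expression was measured on 6 Affymetrix mouse arrays. The deposited values are log2 signals. Per the submitters' processing notes, the authors used RMA and Affymetrix Expression Console 1.1. RMA brings the probe signals of all arrays to 1 distribution before they are summarized per probe set, and compresses differences of dim genes. Its settings were not stated, and no detection calls were used. The median log2 value was 5.07 to 5.14 per array. The number of arrays limits the precision.

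Of 45101 probe sets, 64 controls were left out, 34945 list 1 gene, 932 several and 9160 none. By Entrez ID 34741 matched RefSeq (GRCm38.p6), which changed 0 symbols. Each of 18193 genes was represented by the brightest of its single-gene probe sets, without a filter. CMPF was compared with vehicle by lmFit and eBayes (limma 3.58.1, R 4.3.3), two-sided, adjusted by Benjamini-Hochberg over all genes or all probe sets, at 0.05. The fit was tested on simulated data.

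Members and lists were chosen with earlier results of these data known. The text names the 8 members, up to 4 genes per list by smallest p, and, for members spanning 0.5 or more, the 3 most correlated genes. Others are said to be named after their values were seen. Deviations from group means correlated between 0.488 and 0.638 for arrays of equal number and between -0.555 and 0.0885 for others, so the numbers were taken to pair the arrays, from the data and not from the labels. Alternatives were the replicate block, left-out arrays and pairs, other scalings, probe set means, filters on dim genes, array weights and an acinar covariate.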

Additional observations from a re-analysis of the deposited data

How the results depend on the processing

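The count of called genes was 0 in each of the 19 alternatives tried, the replicate block included (smallest adjusted p = 0.978), over all genes tested there, the 7 shuttle genes and the genes around them. The filters at the 25th percentile and the median level kept 51 and 42 of the 55 genes around the shuttle, and the fit without the suffixes below 54. With the block the differences and the median of 0.06 were those without it, and it changed no call. Leaving out 1 array or 1 pair gave -0.037 to 0.35 for Cpt1a, -0.079 to 0.14 for Cpt1c, -0.16 to 0.085 for Crot, -0.090 to 0.14 for Slc25a20, -0.051 to 0.086 for Slc22a5 and -0.032 to 0.13 for the median of the 7 genes. Cpt2 and Crat stayed positive in these fits. The negative values of Cpt1a came from leaving out 1 array without regard to the pairs, and leaving out a pair gave 0.13 to 0.17. Median centring gave -0.0075 for Slc25a20 and -0.0080 for Slc22a5, means over probe sets gave 0.038 for Crot and -0.0092 for Slc22a5, array weights gave 0.015 for Crot, and the acinar covariate gave -0.045 for Slc22a5. Probe sets without the suffixes _x_at and _s_at, chosen after seeing the data, gave -0.059 for Crat. The cause was not tested. The number of shuttle genes that differed with the replicate number was 1 (Cpt1a), 0 with means over probe sets, 0 with the acinar covariate, and 0 to 1 when 1 array or 1 pair was left out. Over all genes that number was 481, 1149 with the filter at the median level, 157 with the acinar covariate, and 0 to 936 when 1 array or pair was left out. The 95% interval of Cpt1a reached a fold of 1.64 without the block and 1.26 with it.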
